A study of Mus musculus with 24 samples.

Results

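The vesicular glutamate transporters and a small set of glutamatergic genes were followed in serotonergic cell RNA and in total RNA of the mouse brain. The 8 genes, chosen by name, were Slc17a8, Slc17a6, Slc17a7, Slc1a1, Camk2a, Barhl1, Neurod1 and Neurod2, out of 24062 genes in the count files. Brains of wild-type (WT) mice and of Celf6 knockout (KO) mice, in which the gene for the RNA-binding protein CELF6 is knocked out, were taken at postnatal day 9. The cortices were removed and tissue just behind the thalamus was used. From each brain came total RNA (input) and RNA bound to tagged ribosomes of serotonin cells (TRAP, translating ribosome affinity purification). All animals whose RNA went through TRAP carry a serotonin cell TRAP allele per the labels. The promoter that drives the allele, the strain and the sex were not given in the sources used here.

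Glutamatergic neurons load glutamate into synaptic vesicles with VGLUT1 (Slc17a7), VGLUT2 (Slc17a6) or VGLUT3 (Slc17a8). VGLUT1 prevails in cortex and in cerebellar granule cells, VGLUT2 in thalamus and brainstem, and VGLUT3 in scattered cells that often release another transmitter as well, many serotonin neurons of the raphe among them. Slc1a1 encodes EAAC1, a neuronal glutamate uptake carrier, and Camk2a the alpha subunit of the synaptic kinase CaMKII. Barhl1 is a homeodomain factor of rhombic lip derivatives, and Neurod1 and Neurod2 are basic helix-loop-helix (bHLH) factors of differentiating excitatory neurons.

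Factors of the NeuroD family bind E-boxes, so the 250 bases before the annotated starts were searched on both strands for 4 motifs: the E-boxes CAGATG and CAGCTG, the ETS motif CCGGAAGT and the cAMP response element TGACGTCA. RefSeq promoters (GRCm38.p6) of 7 of the 8 genes were searched, and that of Camk2a was not. CCGGAAGT and TGACGTCA had no match in any of them, and 2.88% and 1.55% of 32851 promoters of the same length hold them. Matches to the E-boxes lay at 4 genes and are shown because they include the gene that was higher in TRAP and 2 of those that were lower, with Slc17a6 beside them. The capitals mark the motif, and each line is written along the gene's strand.
Neurod2, chr11:98329747-98329774, minus strand: gtagagagtgaCAGATGgcggcgggtcc
Slc17a8, chr10:89599841-89599868, minus strand: ctcagtttcctCATCTGagaaatgaaac
Slc17a6, chr7:51624421-51624448, plus strand: tctgagtggtaCAGATGgccctgtgggt
Barhl1, chr2:28916751-28916778, minus strand: gccacgcagccCAGCTGgccctcctccc
Barhl1, inner start, chr2:28912496-28912521, minus strand: cacctcacattCAGCTGaaccctgtc
CATCTG at Slc17a8 is CAGATG read on the other strand. The Neurod2 match began at position -118 from the outer gene start. The Slc17a8 and Slc17a6 matches belong to inner starts, 21434 and 2807 bases inside the counted gene. CAGATG occurs in 14.4% and CAGCTG in 13% of all promoters searched, so a match is a description and not a binding site.

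The groups held 5 KO TRAP, 5 WT TRAP, 5 KO input and 3 WT input libraries, with 3390423 to 6861963 counts in the 19 libraries behind them. WT inputs 2 and 3 were as alike as 1 library sequenced again: their chi-square per gene was 1.37, repeat runs gave 1.39 to 2.67, and the remaining 35 same-group pairs gave 26.2 to 95.4. Their sum was counted as 1 sample. A WT input library of 325072 counts and 4 repeat runs were left out. Both Xist and Y-linked RNA were found in KO TRAP 1 (71.3 and 28.8 CPM) and in WT input 5 (37.1 and 9.95 CPM), so the main results are also given without each. These libraries differ from those of the same number, since KO input 1 had Xist at 103.6 and Y-linked RNA at 0.506 CPM, and WT TRAP 5 had 0.475 and 71.3 CPM. Whether each of these pairs is 1 brain, as the numbers imply, is therefore uncertain. The serotonin markers Tph2, Slc6a4, Fev, Ddc and Slc18a2 summed to between 3564 and 9357 CPM (counts scaled to library size) in TRAP and between 117 and 240.3 CPM in input. Celf6 itself stood at 21.4 to 115 CPM in KO TRAP, 85.3 to 187.7 CPM in WT TRAP, 4.79 to 22.02 CPM in KO input and 15.4 to 104.6 CPM in WT input. Its log2 difference of KO from WT was -1.52 ± 0.38 SE in TRAP and -1.56 ± 0.66 SE in input, and neither passed adjustment over all genes in edgeR.

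Over all 18 libraries, TRAP held more Slc17a8 and less Camk2a, Barhl1 and Neurod2 than input. Against input, 1 of the 8 genes rose in TRAP and 3 fell past an adjusted p of 0.05 in edgeR's quasi-likelihood test, while 4 did not pass. Leaving out each of the 18 libraries in turn ended the call 4 times for Slc17a8, 2 for Barhl1, 13 for Neurod2 and 0 for Camk2a. In KO libraries alone 0 of the 8 genes passed, where 124 of all 12273 genes tested were called. In WT libraries alone 1 of the 8 passed, where 160 of all 12995 genes tested were called. With all 18 libraries, 4.72% of the 14261 genes tested were called, 2.41% higher and 2.31% lower. The median log2 fold change of the 8 genes was -0.96, and that of all genes tested was 0.02. In bulk libraries fewer cells of a type and less RNA per cell cannot be told apart.

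Slc17a8 (chromosome 10, 89574020 to 89621249, mm10), the VGLUT3 gene, was the gene that rose. Its level was 34.045, 6.38, 13.5, 93.3 and 49.9 CPM in KO TRAP 1 to 5 and 30.9, 27.2, 38.8, 44.5 and 8.08 CPM in WT TRAP 1 to 5. In input it was 30.4, 6.56, 10.7, 1.44 and 5.88 CPM in KO 1 to 5 and 0.175, 7.73 and 1.21 CPM in WT 1, 2/3 and 5. All 5 WT TRAP libraries lay above all 3 WT input libraries, though WT TRAP 5 (8.08 CPM) was close to WT input 2/3 (7.73 CPM). The KO groups overlapped, since KO input 1 was high and KO TRAP 2 was low. The share of all genes whose groups separate in this way is not given, here or for the genes below. The fold change was 6.04 (log2 2.59 ± 0.69 SE, edgeR adjusted p = 0.0269, 10 TRAP and 8 input libraries). Its size rests partly on very low input counts, with 1 read in WT input 1, 4 in WT input 5 and 6 in KO input 4. Sequencing run 1 alone gave a difference in mean log2 CPM of 1.78 and run 2 one of 3.81, and in KO libraries the runs gave 0.15 and 4.35. The edgeR call was lost without WT TRAP 3 (adjusted p = 0.0517), KO input 5 (0.0541), WT input 1 (0.0754) or WT input 5 (0.118), with log2 values of 2.32 to 2.53. Without WT input 2/3 the value was 3.65 (edgeR adjusted p = 0.0074).

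**Figure D1:**
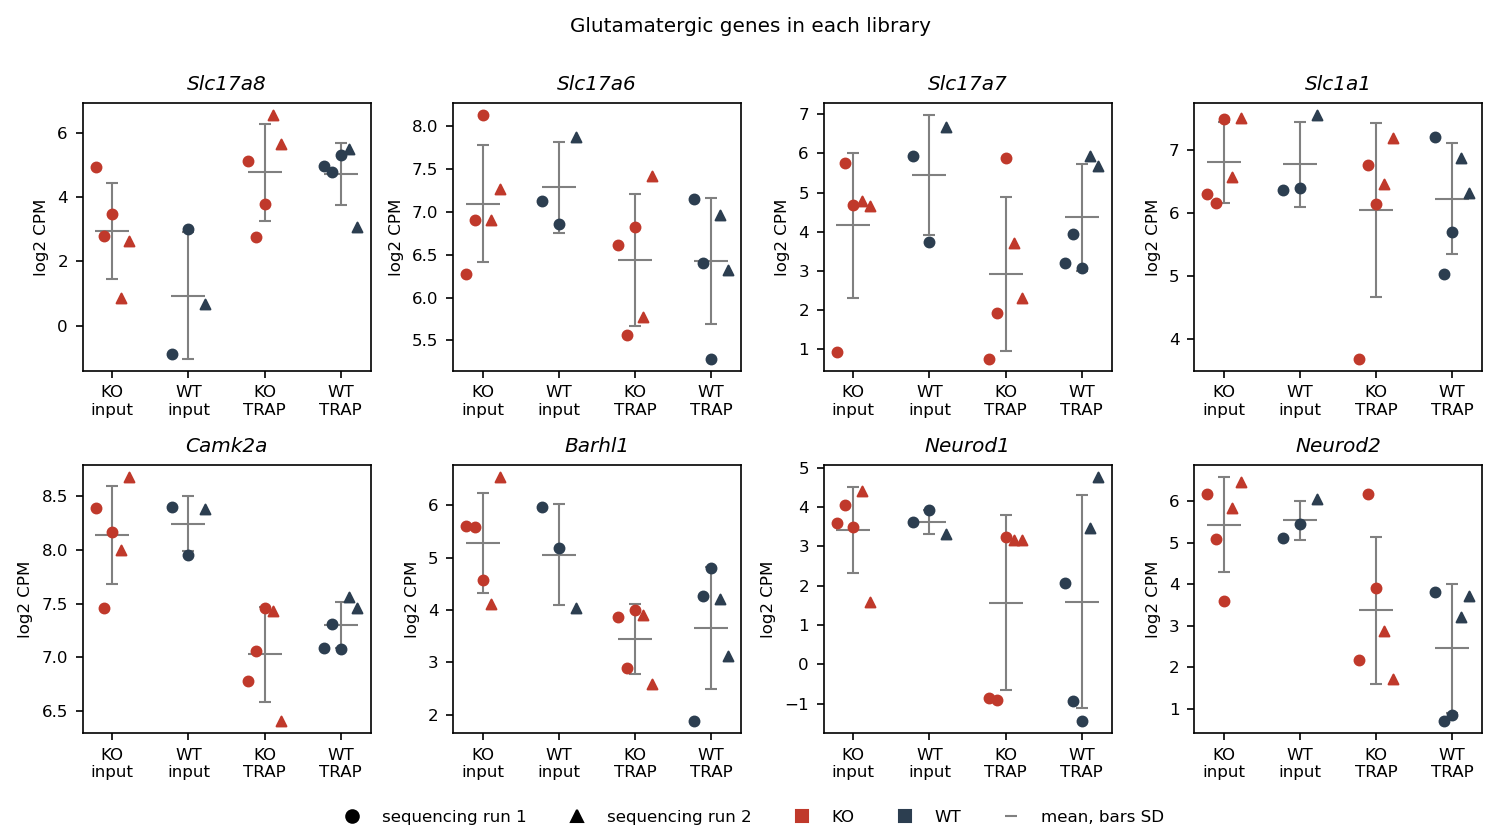
Level of each gene in each library, as log2 CPM with a prior count of 2, by group. Points are libraries (circles run 1, triangles run 2), dashes and bars are the group mean and SD. Slc17a8 is higher in TRAP, and Camk2a, Barhl1 and Neurod2 are lower.

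The other vesicular transporters did not pass the test. Slc17a6 (chromosome 7, 51621830 to 51671126), the VGLUT2 gene, stood at 97.5, 46.9, 113, 54.5 and 171 CPM in KO TRAP and 142, 84.0, 38.6, 125 and 79.8 CPM in WT TRAP. In input it stood at 77.1, 119.7, 280.4, 119.3 and 153.8 CPM in KO and 139, 115.4 and 235.4 CPM in WT. The groups overlapped, and the log2 difference was -0.72 ± 0.29 SE (edgeR adjusted p = 0.161). Slc17a7 (chromosome 7, 45163921 to 45176139), the VGLUT1 gene, varied more between libraries than between RNA kinds. It stood at 1.31, 3.43, 58.8, 12.8 and 4.54 CPM in KO TRAP, 8.79, 14.997, 7.97, 61.0 and 50.9 CPM in WT TRAP, 1.52, 53.2, 25.4, 27.3 and 24.7 CPM in KO input and 61.1, 12.9 and 102.2 CPM in WT input. Its log2 difference was -0.88 ± 0.62 SE (edgeR adjusted p = 0.469). KO TRAP 3 decided that value, which was -2.10 (edgeR adjusted p = 0.0189) without it. Slc17a7 was also high in WT TRAP 4 and 5. Summed oligodendrocyte lineage markers were 4140, 4799 and 4550 CPM in KO TRAP 3, WT TRAP 4 and WT TRAP 5. The other TRAP libraries had at most 2290 CPM of them, and a link to Slc17a7 was not tested.

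The make-up of vesicular transporter RNA was compared per kilobase of exon, as a share within each library. VGLUT3 made up 25.0%, 10.6%, 6.17%, 55.3% and 21.4% in KO TRAP 1 to 5 and 16.2%, 19.9%, 42.8%, 16.8% and 4.83% in WT TRAP 1 to 5. It made up 27.1%, 3.12%, 3.16%, 0.867% and 2.92% in KO input and 0.074%, 5.28% and 0.303% in WT input. Only KO TRAP 4 (55.3%) and WT TRAP 3 (42.8%) lay above every input library, since KO input 1 had 27.1%. The remaining input libraries had at most 5.28%, and 9 of the 10 TRAP libraries had more than that. The mean share was 21.9% ± 15.9 (SD, n = 10) in TRAP and 5.35% ± 8.96 (SD, n = 8) in input, a difference of 16.5 percentage points (two-sided exact permutation p = 0.0143, 0.0429 adjusted over 3 comparisons). The difference was 12.4 points in run 1 and 23.2 in run 2, and 12.8 to 19.6 points when each library was left out. By the design, TRAP and input libraries of 1 number share a brain, so the libraries are not all independent.

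**Figure D2:**
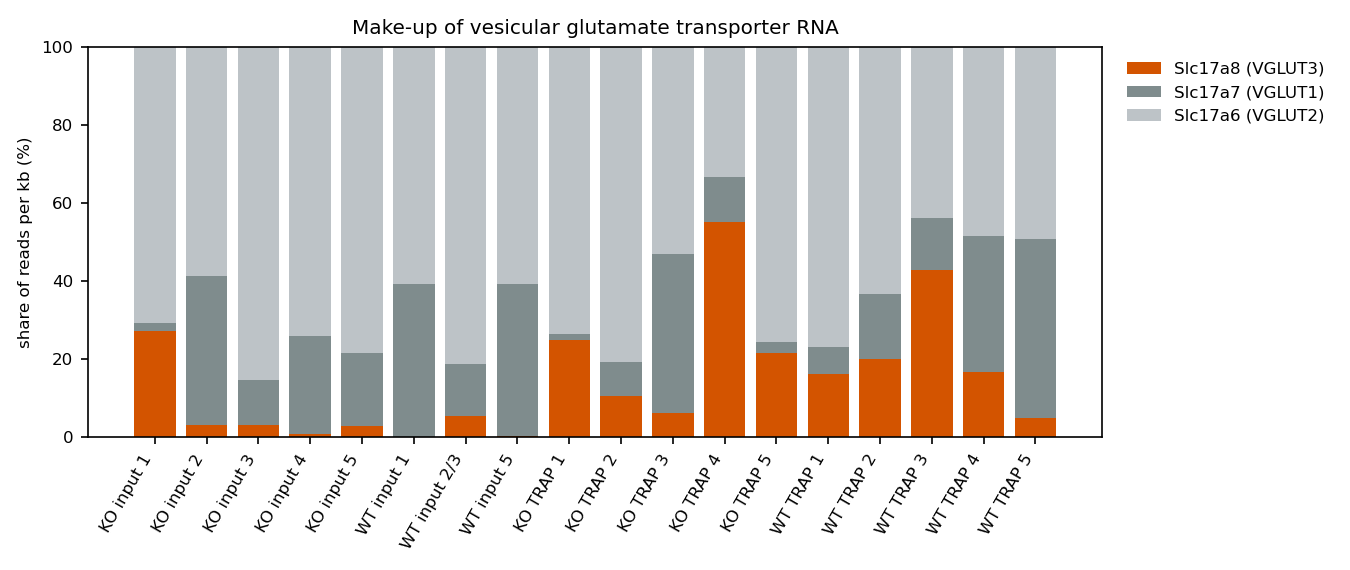
Share of vesicular glutamate transporter reads per kilobase (%) that belongs to Slc17a8, Slc17a7 and Slc17a6 in each of the 18 libraries. Slc17a8 fills 4.83% to 55.3% in TRAP, and KO input 1, at 27.1%, stands apart from the other input libraries.

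VGLUT2 had the largest mean share in both RNA kinds. Its share was 59.8% ± 16.4 (SD, n = 10) in TRAP and 71.3% ± 10.3 (SD, n = 8) in input, and that of VGLUT1 was 18.3% ± 16.2 and 23.3% ± 14.3. KO TRAP 4 was the library in which VGLUT3 exceeded VGLUT2, with 55.3% against 33.3%.

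Slc1a1 (chromosome 19, 28835166 to 28913960), the neuronal uptake carrier, did not pass. It stood at 12.5, 107.9, 70.0, 87.6 and 145.6 CPM in KO TRAP, 146.8, 32.2, 51.7, 116.4 and 79.1 CPM in WT TRAP, 78.8, 71.0, 178.6, 94.2 and 180.3 CPM in KO input and 81.9, 84.1 and 187.2 CPM in WT input. The groups overlapped, and the log2 difference was -0.49 ± 0.33 SE (edgeR adjusted p = 0.448). Camk2a (chromosome 18, 60925632 to 60988152) had the smallest SE of the 8 genes. It stood at 109.4, 132.9, 175.6, 172.1 and 84.7 CPM in KO TRAP and 135.9, 158.7, 134.7, 188.7 and 175.9 CPM in WT TRAP. In input it stood at 334.4, 175.4, 286.4, 255.6 and 409.1 CPM in KO and 337.6, 247.3 and 333.1 CPM in WT. All WT TRAP libraries lay below all WT input libraries, and in KO 4 of the 5 TRAP libraries lay below every input library. Camk2a was 2.04-fold lower in TRAP (log2 -1.03 ± 0.20 SE, edgeR adjusted p = 0.00171), and passed without any 1 of the 18 libraries.

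Barhl1 (chromosome 2, 28907680 to 28916440) stood at 14.2, 7.03, 15.6, 14.7 and 5.61 CPM in KO TRAP, 3.33, 18.9, 27.6, 18.2 and 8.32 CPM in WT TRAP, 47.9, 47.7, 23.5, 17.0 and 92.4 CPM in KO input and 61.8, 35.8 and 15.97 CPM in WT input. The KO groups did not overlap, and the WT groups did. Its log2 difference was -1.64 ± 0.42 SE (edgeR adjusted p = 0.0229), 3.11-fold lower. With the brain as a block it was -1.76 and no longer passed (edgeR adjusted p = 0.0578), nor did it without KO input 5 (0.0966) or WT input 1 (0.104).

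The NeuroD factors differed in how steady they were. Neurod2 (chromosome 11, 98325417 to 98329645) stood at 4.12, 71.6, 14.5, 6.97 and 2.94 CPM in KO TRAP, 13.5, 1.26, 1.42, 8.86 and 12.8 CPM in WT TRAP, 72.0, 33.8, 11.7, 56.5 and 87.6 CPM in KO input and 34.4, 43.5 and 65.7 CPM in WT input. All WT TRAP libraries lay below all WT input libraries, while KO TRAP 2 was close to KO input 1. The log2 difference was -1.99 ± 0.57 SE (edgeR adjusted p = 0.0414), but for 13 of the 18 libraries, leaving that library out ended the call (highest adjusted p 0.103). Without KO TRAP 2 the value was -2.75, and with the brain as a block -2.68, both past the threshold. Neurod1 (chromosome 2, 79452641 to 79456636) stood at 0.187, 0.163, 9.15, 8.67 and 8.55 CPM in KO TRAP, 3.801, 0.158, 0, 10.8 and 26.9 CPM in WT TRAP, 11.6, 16.2, 10.9, 20.8 and 2.65 CPM in KO input and 11.9, 14.8 and 9.64 CPM in WT input. At 0 to 1 counts in 4 TRAP libraries of run 1, Neurod1 gave -3.54 within run 1 and 0.54 within run 2 (TRAP minus input, mean log2 CPM). The edgeR value over all libraries was -1.54 ± 0.88 SE (adjusted p = 0.354). It was -2.69 without KO TRAP 3, -0.88 without the run term and -2.50 with the brain as a block, and passed in none of these.

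The 4 calls were repeated without each of the libraries that held both Xist and Y-linked RNA. Without KO TRAP 1 the edgeR log2 differences were 2.68 for Slc17a8 (adjusted p = 0.0332), -1.005 for Camk2a (0.00355), -1.67 for Barhl1 (0.0271) and -1.87 for Neurod2 (0.0536). Without WT input 5 they were 2.32 for Slc17a8 (edgeR adjusted p = 0.118), -1.04 for Camk2a (0.00669), -1.83 for Barhl1 (0.0232) and -1.88 for Neurod2 (0.103). In 1 genotype alone, with fewer libraries, most of the calls were not made. WT libraries gave 3.36 for Slc17a8 (edgeR adjusted p = 0.0844), -0.99 for Camk2a (0.0609), -1.15 for Barhl1 (0.461) and -2.79 for Neurod2 (0.0482). KO libraries gave 1.64 for Slc17a8 (edgeR adjusted p = 0.464), -1.12 for Camk2a (0.0924), -1.99 for Barhl1 (0.112) and -1.67 for Neurod2 (0.420). The difference in VGLUT3 share was 16.2 points without KO TRAP 1 and 15.8 points without WT input 5.

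**Figure D3:**
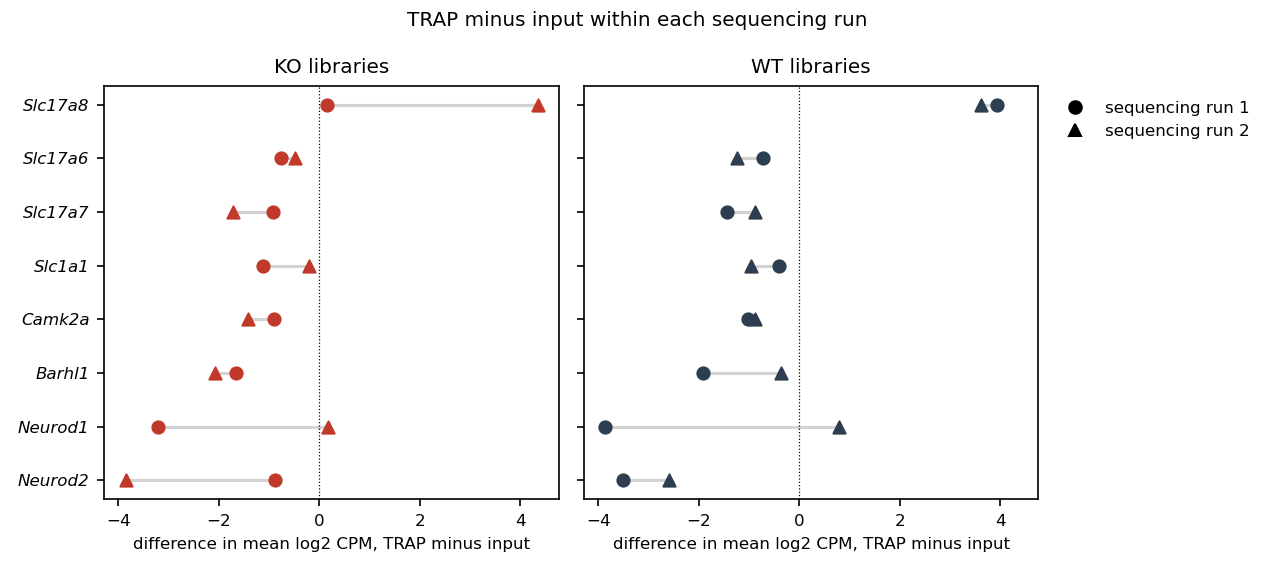
Difference in mean log2 CPM, TRAP minus input, within run 1 (circles) and run 2 (triangles), for KO and WT libraries. Neurod1 lies on opposite sides of 0 in the runs, and Slc17a8 in KO lies at 0.15 in run 1 and 4.35 in run 2.

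Markers of other cells also stood lower in TRAP, and their part in these results was not tested. Of the markers tested, 2 of 7 of astrocytes, 4 of 7 of the oligodendrocyte lineage, 2 of 4 of GABAergic and glycinergic neurons, 1 of 6 of the cerebellar granule lineage, 0 of 2 of forebrain excitatory neurons and 0 of 5 of microglia fell. Of all genes tested, 2.31% fell. The summed oligodendrocyte lineage markers ran from 934 to 4799 CPM in TRAP and from 4504 to 11544 CPM in input. In WT TRAP 5 they stood at 4550 CPM, above the summed serotonin markers at 3564 CPM. The summed granule lineage markers ran from 58.3 to 298 CPM in TRAP and from 152.3 to 368.6 CPM in input. Atoh1 was at 0 in all 10 TRAP libraries and in 7 of 8 input libraries. The summed forebrain markers ran from 14.5 to 53.7 CPM in TRAP and from 11.98 to 51.2 CPM in input, with Tbr1 and Emx1 each at 0 in 8 of 10 TRAP and 7 of 8 input libraries.

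Ordered by mean CPM per kilobase, the levels in TRAP were Camk2a 27.4 ± 6.20, Slc1a1 22.9 ± 12.2, Slc17a6 22.04 ± 9.97, Slc17a8 7.79 ± 5.71, Slc17a7 7.64 ± 8.25, Neurod2 4.40 ± 6.67, Barhl1 3.62 ± 2.00 and Neurod1 2.74 ± 3.32 (SD, n = 10). In input they were Camk2a 55.5 ± 13.4, Slc17a6 35.9 ± 15.8, Slc1a1 32.2 ± 14.1, Neurod2 16.2 ± 7.81, Slc17a7 13.1 ± 10.98, Barhl1 11.6 ± 6.997, Neurod1 4.94 ± 2.13 and Slc17a8 1.80 ± 2.19 (SD, n = 8). Slc17a8 was last of the 8 in input and, over all TRAP libraries, stood just above Slc17a7. In WT TRAP alone that order was the other way, with 9.77 ± 8.59 for Slc17a7 and 6.71 ± 3.13 for Slc17a8 (SD, n = 5). In both orders the ranges of mean ± SD of neighbours overlapped.

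Related genes were counted in lists of their own, here and in the next paragraph. For comparison, 2.41% of all genes tested rose in TRAP and 2.31% fell. Of 19 tested genes of glutamate synthesis, recycling and uptake, 0 rose and 2 fell, with a median log2 difference of -0.17. The 2 were Glul (-1.38, edgeR adjusted p = 7.89e-05), glutamine synthetase of astrocytes, and Slc25a18 (-2.02, 0.0192), a mitochondrial glutamate carrier. The astrocytic uptake carriers Slc1a3 (-1.23, 0.0620) and Slc1a2 (-0.90, 0.0771) did not pass. The CaMKII and calmodulin list of 17 had 0 higher and 2 lower (median -0.24), with Nrgn at -1.77 and Camkk1 at -1.26, and the kinase subunit Camk2g at -0.52 did not pass (edgeR adjusted p = 0.123). Among 13 tested bHLH factors and relatives 0 rose and 2 fell (median -0.95), Id3 at -1.86 and Tcf4 at -1.31.

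Of 18 tested genes of the cerebellar granule lineage and rhombic lip, 1 rose and 3 fell (median -0.94). En1, a midbrain and hindbrain factor that serotonin neurons also express, was the one that rose (log2 1.74 ± 0.39 SE, edgeR adjusted p = 0.00824), and Nfix (-1.71), Nfia (-2.001) and Zic1 (-1.34) fell. Of 10 tested forebrain excitatory factors 0 rose and 1 fell, Bcl11b at -2.03 (median -0.56). Of 11 tested midbrain and hindbrain factors 0 passed in either direction (median -0.93). Of the 11 values, 2 lay above 0 and 9 below. Lmx1b, which serotonin neurons require, had 2.65 ± 0.86 SE (edgeR adjusted p = 0.0727). The next by p were lower in TRAP, Lhx9 at -0.93 (0.0892), Otp at -3.50 (0.0985) and Pou4f1 at -1.59 (0.127). The other SLC17 family had 1 of 6 genes tested, Slc17a5, at -0.63.

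Loss of Celf6 was compared with WT in each RNA kind, and 0 of the 8 genes passed in either. In TRAP 0 of 12204 genes (0%) passed in edgeR, and 455 (3.73%) had an unadjusted p below 0.05, with 0 of the 8 among them. DESeq2 called 9 genes and 0 of the 8, but gave no adjusted p for Slc17a7 and Neurod1. Slc17a8 averaged 39.4 ± 34.7 CPM in KO TRAP and 29.9 ± 13.9 CPM in WT TRAP (SD, n = 5 each), with a log2 difference of 0.04 and a 95% interval of -1.26 to 1.33. Camk2a had the narrowest interval, -0.83 to 0.36 around -0.24. The widest was that of Neurod1, -2.29 to 2.89 around 0.30. For Neurod2, with 20.04 ± 29.2 CPM in KO and 7.58 ± 5.97 CPM in WT, the difference was 1.13 (interval -1.09 to 3.35), and it was -0.04 without KO TRAP 2.

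In input 0 of 13036 genes (0%) passed in edgeR, 376 (2.88%) had an unadjusted p below 0.05, with 0 of the 8 among them, and DESeq2 called 4 genes and 0 of the 8. The farthest from 0 was Slc17a8, with 10.98 ± 11.3 CPM in KO (SD, n = 5) and 3.04 ± 4.10 CPM in WT (SD, n = 3), a log2 difference of 1.85 and an interval of -0.59 to 4.29. That difference was 1.252 without WT input 1, 1.275 without KO input 1 and 3.37 without WT input 2/3. Slc17a7 had -1.05 (interval -2.66 to 0.56; -0.47 without WT input 5 and -1.67 without KO input 2) and Camk2a -0.09 (interval -0.67 to 0.48). A test of whether the KO effect differed between TRAP and input (the interaction) called 0 of 14261 genes (0%) in edgeR and 4 in DESeq2, and 554 (3.88%) reached 0.05 unadjusted, with 0 of the 8 among them. For the 8 genes it ran from -1.32 (Slc17a8) to 1.39 (Neurod2). The VGLUT3 share differed by 3.60 percentage points between KO and WT TRAP (two-sided exact permutation p = 0.714), with -12.4 in run 1 and 27.6 in run 2, and by 5.54 points in input (p = 0.571, exact permutation).

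**Figure D4:**
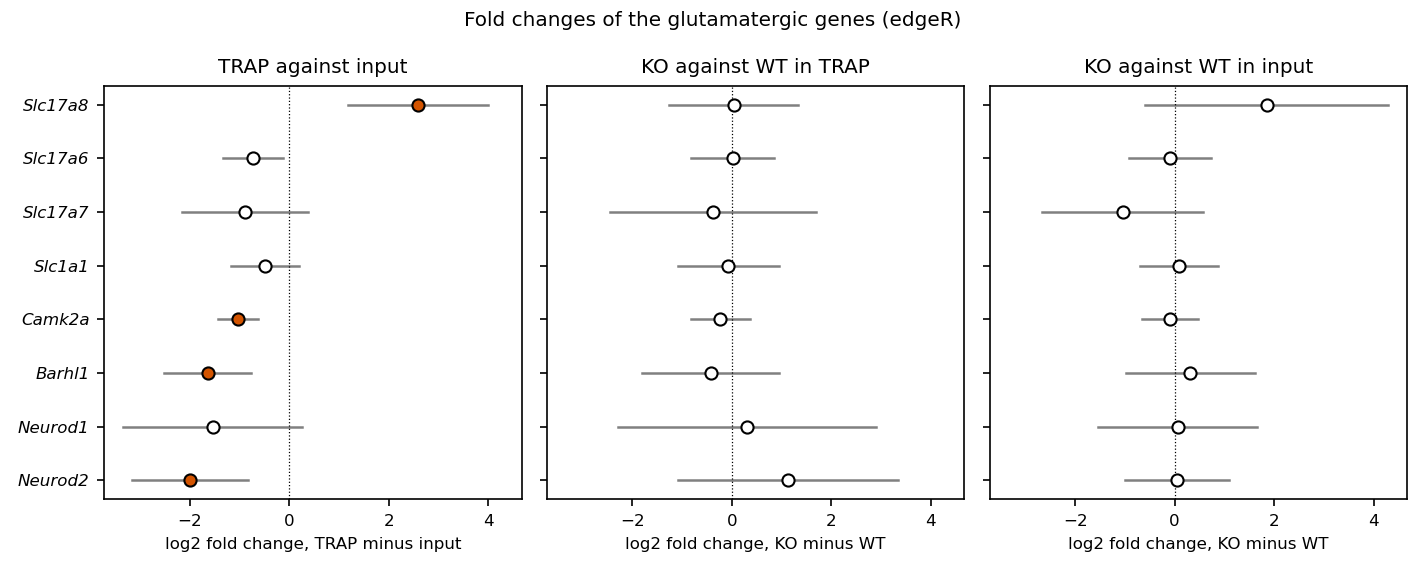
Log2 fold change and 95% interval from edgeR for each gene in TRAP against input, KO against WT in TRAP and KO against WT in input. Filled points passed an adjusted p of 0.05, which 4 genes did in the first comparison and 0 in the others.

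Transcript forms were read from percent spliced in (PSI) values, for tandem 3' UTRs of different length. The file headers assign a PSI of 1 to UTR B, whose listed coordinates are the shorter ones (997 bases against 3373 for Camk2a), but this direction was not checked against reads, so which form prevailed is not stated here. Slc1a1 in TRAP had 0.939, 0.996, 0.982, 0.907 and 0.987 in KO and 0.992, 0.963, 0.983, 0.988 and 0.988 in WT. The groups overlapped, and the difference of log2(PSI/(1−PSI)) was -0.81 ± 0.70 SE (limma adjusted p = 0.917), where 2 of 340 tandem UTR events (0.588%) passed. Camk2a had 0.982 ± 0.0131 in KO TRAP and 0.972 ± 0.0376 in WT TRAP (SD, n = 5 each; difference 0.20, limma adjusted p = 0.967). In input it had 0.987 ± 0.00955 in KO and 0.991 ± 0.00399 in WT (difference -0.21, limma adjusted p = 0.9985, 0 of 242 events passed). Slc17a7 lay towards the other end of the scale, with values of 0.0986 to 0.206 in 5 TRAP libraries and 0.176 to 0.358 in 3 input libraries, too few to test. Slc1a1 in input had values of 0.974 to 0.993 in 5 KO and 2 WT samples, and was not tested either. Barhl1 had 1 value for a 3' splice site event, 0.929 in WT input 1, and was not tested. Of splicing events of all kinds tested together, 1 of 1861 (0.0537%) passed in TRAP and 0 of 1154 in input. The other 4 genes had no event with a value. The authors' deposited table marks Slc17a7 as bound by CELF6 in an intron, with input as the stated criterion. It marks Slc1a1, Camk2a and Barhl1 as not bound.

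The genes whose levels over the 18 libraries were most like each gene were found by the root mean square difference of centred log2 CPM. For Slc17a8 they were Bahcc1 (1.14) and Ldoc1 (1.21), against a median of 2.51 over 1933 candidates. For Camk2a they were Lynx1 (0.333) and Mpc2 (0.338), against 0.890. For Neurod2 they were Bcl11b (0.998) and Nfia (1.11), against 2.31, and for Barhl1 they were Ngef (0.708) and Irx1 (0.745), against 1.61. For Slc17a6 they were Stim2 and Pcyox1, for Slc17a7 Prr16 and Dgat1, for Slc1a1 Sel1l and Scn8a, and for Neurod1 Hist1h2bc and Fgf18.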

How the data were processed

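Counts per gene were used as the authors deposited them, whole numbers made with featureCounts 1.4.6-p5 on mm10 per the file headers. Trimmomatic and STAR are named in the submitters' processing notes, without versions. cDNA was amplified before library preparation per the labels, so low counts need not be independent molecules. PSI values are fractions in the tables the authors deposited, filtered by the authors to credible intervals no wider than 0.2. P-values in those deposited tables were not used.

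The genes, lists, motifs and comparisons were chosen with earlier results of these data known. The 18 libraries were compared in edgeR 4.0.16 (R 4.3.3; filterByExpr, TMM, quasi-likelihood F test, Benjamini-Hochberg over all genes tested, threshold 0.05) with the sequencing run as a covariate. TRAP against input was the mean of the KO and WT differences. Intervals are 95%, and CPM are TMM-normalized. PSI was compared in limma 3.58.1 on log2(PSI/(1−PSI)), held between 0.01 and 0.99, with at least 3 libraries per genotype and WT input 2 and 3 averaged. DESeq2 1.42.0, no filter, other scaling, no run term, the brain as a block and leaving out each library were alternatives. Both tests were tried on simulated data. Equal numbers in TRAP and input mean the same brain by the design, but residuals of such pairs correlated at only -0.186 to 0.0366. WT input 2 and 3 being alike, the brain of one of them is uncertain, and Xist and Y-linked RNA differ within KO pair 1 and WT pair 5, so the block rests on uncertain pairs. Named list genes were among the 4 with the smallest p, and likeness used genes of at least 5 CPM with an SD 0.67 to 1.5 times that of the gene. Whether replicates are separate litters is not stated, and p-values measure the spread between these libraries. The motif search covered all 4 motifs named, with 2 of them giving no match. The level of 1 forebrain marker is not reported here.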

Additional observations from a re-analysis of the deposited data

Results flagged for a closer look

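In 3 of 27 groups of 5 libraries, 1 library stood apart by Dixon's test. For normally distributed values that test flags about 1 in 20 groups by chance. CPM and shares were tested without a log and the groups share libraries, so that rate need not hold here. Slc17a7 was 58.8 CPM in KO TRAP 3, and the next KO TRAP library had 12.8 CPM. Neurod2 was 71.6 CPM in KO TRAP 2, and the next had 14.5 CPM. The VGLUT3 share was 27.1% in KO input 1, and the next KO input library had 3.16%.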

How the results depend on the processing

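All 8 genes kept their direction in TRAP against input under every alternative. Genes past the threshold numbered 1065 without the filter, 1332 in DESeq2, 160 in WT alone and 124 in KO alone, against 673, and 346 to 831 when each library was left out (363 without WT input 1, 346 without WT input 5). Of the 8 genes, 4 passed, 1 in WT alone (Neurod2), 0 in KO alone, and 1 to 4 when each library was left out. KO against WT in TRAP gave 16 genes without the filter and 9 in DESeq2, in input 4, 4 and 1 with the replicate block (0 to 1 when each library was left out), and the interaction 3 and 4. The cause was not tested.

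Direction reversed only for values that had not passed. With the replicate block these were, in TRAP, Slc17a6 -0.017 and Neurod1 -0.52 (-0.65 with no run term), in input Slc1a1 -0.12 and Neurod1 -0.53, in the interaction Slc17a7 -0.091 and Neurod1 1.05, and Camk2a PSI in input 0.090. With WT input 2 and 3 separate they were Slc17a6 in input 0.0045 and the Neurod1 interaction 0.0497. The block in KO against WT is a shared number only, with residual correlations of -0.172 to 0.192.

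Leaving out each library, KO against WT in TRAP ran from -0.42 to 0.42 (Slc17a8), -0.30 to 0.31 (Slc17a6), -2.40 to 0.27 (Slc17a7), -0.37 to 0.42 (Slc1a1), -1.82 to 1.45 (Neurod1) and -0.041 to 1.75 (Neurod2). In input it ran from 1.252 to 3.37 (Slc17a8), -1.67 to -0.47 (Slc17a7), -0.54 to 0.32 (Slc17a6), -0.27 to 0.40 (Slc1a1, -0.017 without WT input 2/3), -0.21 to 0.052 (Camk2a), -0.30 to 0.80 (Barhl1), -0.54 to 0.28 (Neurod1) and -0.42 to 0.31 (Neurod2). The interaction ran from -0.16 to 0.54 (Slc17a6), -1.49 to 1.37 (Slc17a7), -0.42 to 0.32 (Slc1a1), -0.28 to 0.037 (Camk2a), -1.12 to 0.70 (Neurod1) and -0.050 to 2.06 (Neurod2). The VGLUT3 share in TRAP ran from -4.29 to 9.27 points, and Camk2a PSI from -0.30 to 0.10 in input and -0.42 to 0.52 in TRAP. Leaving out a WT input library left no PSI event testable in input. The added alternative with WT input 2 and 3 separate for PSI was chosen after seeing the data. Low counts limit Neurod1 and, in input, Slc17a8. Single libraries were also low for Slc17a7 (lowest 7 reads in TRAP and 9 in input), Neurod2 (8 in TRAP) and Barhl1 (14 in TRAP).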

Other observations

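The 4 libraries that were run again gave the 8 genes much the same levels: over 31 pairs of a gene and a library with more than 3 reads in both runs, the median fold between the runs was 1.13 and the highest 1.46.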
